A study of Rattus norvegicus with 2 samples.

Results

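The genes described here encode the angiotensin, endothelin and adrenomedullin systems: angiotensinogen (Agt), angiotensin-converting enzyme (Ace), the angiotensin receptors Agtr1a and Agtr2, endothelin 1 (Edn1), endothelin-converting enzyme 1 (Ece1), the endothelin receptors Ednra and Ednrb, and adrenomedullin (Adm). They were chosen by gene symbol, as 9 genes of which 8 had a named probe, with 11 probes in all among 40012 probes and 15611 named genes. Ednra had no named probe and was not analysed here. RNA of untreated rat lung cells that had not been cultured was hybridised in Cy3 on 2 two-colour Agilent arrays, lung replicates 1 and 2. Each array carried in Cy5 the control RNA mix1, a pool of bone marrow cells (BMC) and primary ear fibroblasts (PEF) of the rat, both grown in serum-containing medium. The labels give no strain, sex or age, and no number of animals behind each RNA. The spread that p-values measure is thus that between these 2 samples, and it may be technical.

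Each value is a log2 ratio of lung over mix1, so 1 is a 2-fold higher and -1 a 2-fold lower signal in lung, and the number of arrays limits its precision. The direction is likely rather than stated. Agilent Feature Extraction by itself writes red (Cy5) over green (Cy3), which on these arrays would be mix1 over lung, the opposite of the sign used. The sign used rests on the wording of the series and on 6 lung epithelial genes (Sftpc, Sftpa1, Sftpb, Sftpd, Scgb1a1 and Ager), whose median was 5.66 in replicate 1 and 5.62 in replicate 2 with this sign. Turning the sign would turn every direction below. Mix1 entered as 1 RNA, and its own spread does not enter, and the dyes were never swapped. A ratio gives no level: how bright a probe was in either channel was not used here, so none of the genes is called present or absent.

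As background, angiotensin I is cut from angiotensinogen, and angiotensin-converting enzyme, which sits on the lumenal face of lung capillaries, trims it to angiotensin II, which narrows vessels through the type 1 receptor. Endothelin 1 is made from a precursor by endothelin-converting enzyme and acts on Ednra, mainly on smooth muscle, and on Ednrb, which in the lung also clears the peptide from the blood. Adrenomedullin relaxes vessels and acts on a receptor built from Calcrl and one of the Ramp proteins.

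The 8 measured genes ran from strongly higher to strongly lower in lung. Ace and Agt were 19.6-fold and 7.93-fold higher, Ednrb and Adm were 3.30-fold and 12.3-fold lower, and Ece1, Agtr1a, Edn1 and Agtr2 lay within 2-fold of mix1 in the mean. By limma's moderated test against 0 (Benjamini-Hochberg adjusted p under 0.05 over all genes), 4 were higher and 4 lower. That test called 82.7% of all genes, 32.9% higher and 49.7% lower, so passing it says little about these genes, and the size of the ratio carries more. At least 2-fold ratios of one sign in both arrays were found for 4 of the 8, 2 higher and 2 lower, against 32.3% of all genes (16.5% higher and 15.8% lower). The same 4 genes passed limma's treat against a 2-fold change, which 25.8% of all genes passed (13.7% higher and 12.0% lower). The median of the 8 was 0.02, against -0.22 for all genes, and their SD between arrays ran from 0.0025 to 0.12, against a median of 0.05 for all genes. In bulk RNA, fewer cells of a type and less RNA per cell cannot be told apart.

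**Figure D1:**
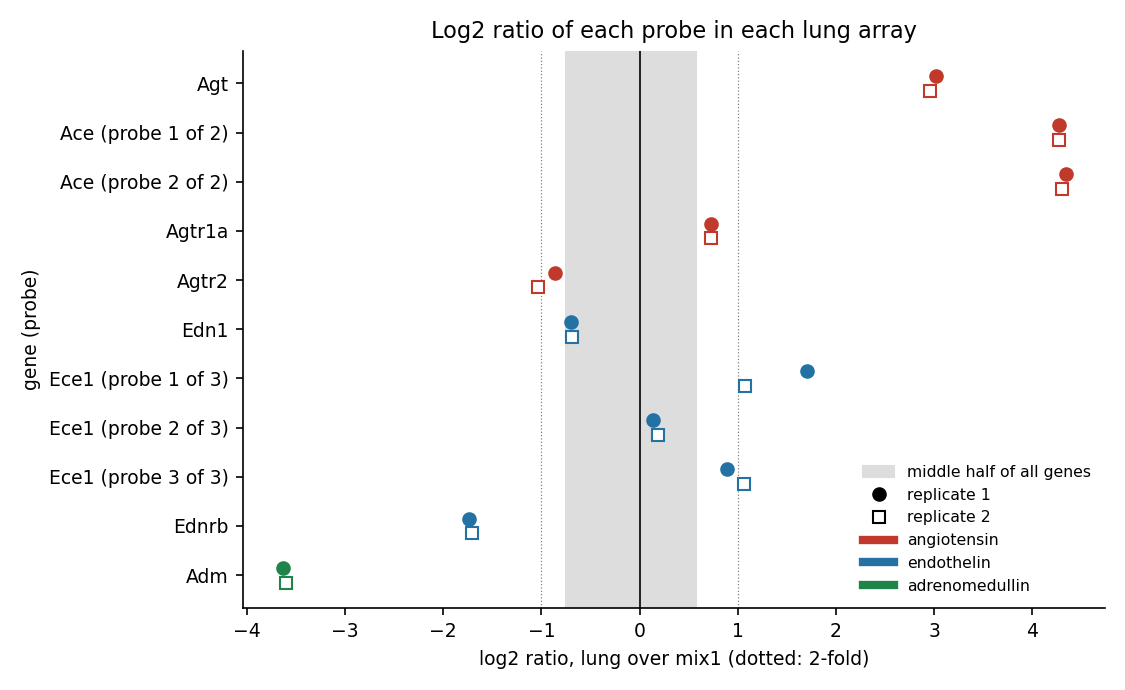
Log2 ratio of lung over mix1 (x axis) for each of the 11 probes (rows), with a filled circle for replicate 1 and an open square for replicate 2, and dotted lines at 2-fold. The 2 Ace probes lie above 4 and Adm below -3 in both arrays, while the 3 Ece1 probes spread from 0.14 to 1.70.

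**Figure D2:**
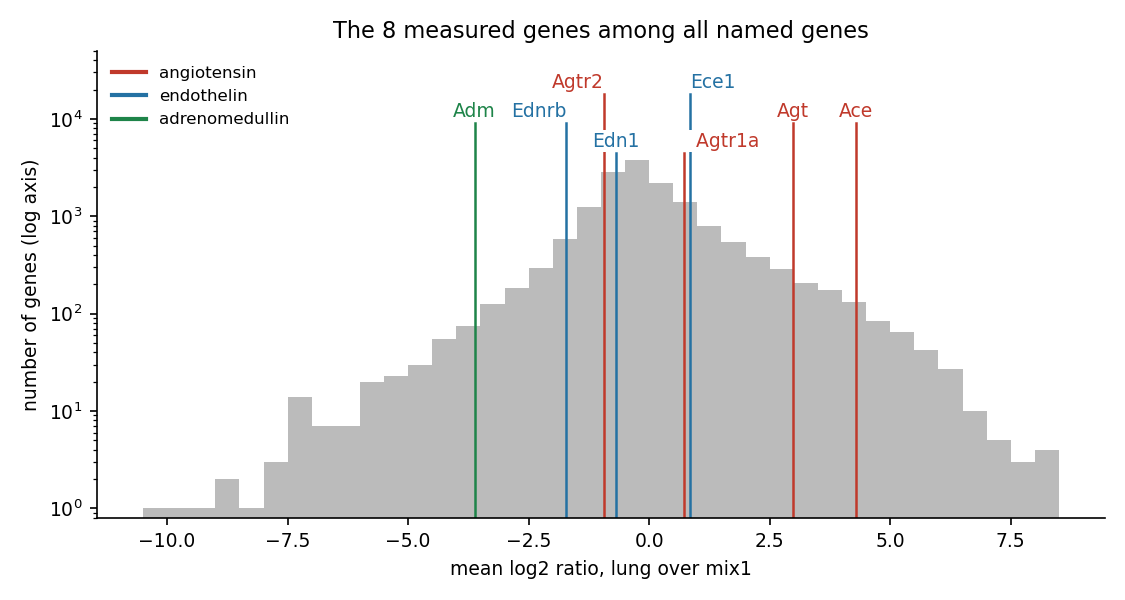
Number of named genes (log axis) by mean log2 ratio of 2 arrays, in bins 0.5 wide, with a line for each of the 8 measured genes. Ace (4.29) and Adm (-3.62) lie in the tails and Edn1 (-0.70) in the bulk of all genes.

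Angiotensinogen, the precursor of all angiotensin peptides, was higher in lung. Agt had log2 ratios of 3.02 in replicate 1 and 2.95 in replicate 2, a mean of 2.99 ± 0.05 (SD, n = 2; limma adjusted p 0.00117). Both arrays were far above 0, and 95.1% of genes had a lower mean ratio. Agt was read by 1 probe.

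Angiotensin-converting enzyme had the highest ratio of the set. Ace lay at 4.30 in replicate 1 and 4.29 in replicate 2, a mean of 4.29 ± 0.01 (SD, n = 2; 95% interval 4.18 to 4.41; limma adjusted p 0.00117), which ranked 290 from the top of 15611 genes. Its 2 probes gave nearly the same answer: the means were 4.27 for A_43_P11457 and 4.32 for A_44_P513075, and the lowest of the 4 readings was 4.27. The ratio of Ace was above that of the other converting enzyme of the set, Ece1, by 3.45 ± 0.08 on the log2 scale (SD, n = 2), in both arrays. This is a difference of ratios and not of levels, and it varies with the Ece1 probe, whose means ran from 0.16 to 1.39.

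The 250 bases before the RefSeq start of Ace are shown because Ace had the highest ratio of the set (GRCr8, chr10:91409879-91410128, plus strand). Capitals in the promoters shown mark matches on either strand. The motifs searched were the TATA box with the letters TATAA and the GC box with the letters GGGCGG. The core of the hypoxia response element was searched as ACGTG. The GATA site was searched as AGATAA, and the AP-1 site, bound by the Fos and Jun factors, as TGANTCA. Other spellings of these sites were not searched, so a window without a match may still hold such a site.
Ace: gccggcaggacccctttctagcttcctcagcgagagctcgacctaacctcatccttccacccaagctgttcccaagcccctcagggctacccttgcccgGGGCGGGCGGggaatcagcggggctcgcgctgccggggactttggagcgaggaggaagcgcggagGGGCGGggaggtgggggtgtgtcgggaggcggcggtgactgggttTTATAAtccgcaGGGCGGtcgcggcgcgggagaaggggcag
The window holds TATAA 40 to 36 bases before the start, overlapping its copy on the other strand, and 4 copies of GGGCGG, of which 2 overlap. Of 33469 rat promoters of this length, 24.0% hold TATAA and 30.5% hold GGGCGG. Among the 8 genes of the set with an entry, Ednra included, 5 hold the first and 4 the second. The table has no entry for Agt. A match is a description of letters, and binding was not measured.

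The angiotensin receptors lay on opposite sides of 0, both by less than 2-fold in the mean. Agtr1a, the main type 1 receptor of rodent vessels, had log2 ratios of 0.73 in both arrays (0.73 ± 0.0025; SD, n = 2; limma adjusted p 0.00243). Its close copy Agtr1b gave 0.91 and 0.95, a mean of 0.93 ± 0.03. The coding sequences of this pair are much alike, so signal from one may reach the other's probe, which was not tested. Agtr2, the type 2 receptor, which is known for its high expression in fetal tissues, had -0.86 in replicate 1 and -1.03 in replicate 2 (-0.95 ± 0.12; limma adjusted p 0.00508). Agtr2 thus reached 2-fold lower in replicate 2 only. The ratio of Agtr1a exceeded that of Agtr2 by 1.59 in replicate 1 and 1.76 in replicate 2, a difference of 1.68 ± 0.12.

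Of 19 other angiotensin pathway genes listed 17 were measured, and 12 were higher, 4 lower and 1 not called, beside 32.9% higher and 49.7% lower among all genes. Their median was 0.56, beside -0.22 for all genes. At least 2-fold ratios in both arrays were found for 6 higher and 2 lower genes, beside 16.5% and 15.8% of all genes. The highest was Cma1, the mast cell chymase that can also make angiotensin II, at 3.39 and 3.36 (3.38 ± 0.03; SD, n = 2). Enpep, the aminopeptidase that turns angiotensin II into angiotensin III, lay at 1.52 in both arrays. Hsd11b2 at 1.15 ± 0.19 shields the mineralocorticoid receptor from glucocorticoid, and the receptor gene itself, Nr3c2, lay at 1.14 ± 0.01. Its 2 probes differed, with means of 0.39 and 1.89. The lowest were neprilysin (Mme, -1.67 ± 0.03) and thimet oligopeptidase (Thop1, -1.19 ± 0.01), peptidases that cleave angiotensin I to angiotensin-(1-7). The aminopeptidase Lnpep (-0.56 ± 0.03) and the receptor Mrgprd (-0.16 ± 0.0021) completed the 4 lower genes. With array medians subtracted Mrgprd lay on the other side of 0, at 0.03, and was not called (limma adjusted p 0.641). Atp6ap2, which encodes an accessory protein of the proton pump (0.44 ± 0.01), and Mas1, which encodes the angiotensin-(1-7) receptor (0.31 ± 0.10), were higher by under 2-fold.

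Endothelin 1, the endothelial vasoconstrictor peptide, was slightly lower in lung than in mix1. Edn1 had log2 ratios of -0.70 and -0.69 in replicates 1 and 2 (-0.70 ± 0.0028; SD, n = 2; limma adjusted p 0.00257), or 1.62-fold lower. The arrays agree closely, but 27.2% of genes had a lower ratio still, and 558 genes lay within a distance of 0.1 of Edn1 over the 2 arrays.

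The converting enzyme of this pathway gave probe-dependent values. Ece1 averaged 0.91 in replicate 1 and 0.77 in replicate 2 over its 3 probes (0.84 ± 0.10; SD, n = 2; limma adjusted p 0.00468). Probe A_42_P839121 read 1.70 and 1.08, the widest gap between arrays of any probe in the set. Probe A_44_P991864 read 0.89 and 1.06, and probe A_44_P195356 read 0.14 and 0.19. The first and second of these were called higher in a fit over all 40012 probes, which called 75.9% of them (33.2% higher and 42.7% lower), and the third was not (limma adjusted p 0.0564). All 6 readings were above 0, and the first probe alone reached 2-fold in both arrays, as 31.3% of all probes did.

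The type B receptor was lower in lung. Ednrb had -1.73 in replicate 1 and -1.71 in replicate 2, a mean of -1.72 ± 0.02 (SD, n = 2; 95% interval -1.84 to -1.61; limma adjusted p 0.00124). Both arrays were beyond 2-fold, and 7.07% of genes lay lower. Its ratio minus that of its ligand Edn1 was -1.04 in replicate 1 and -1.02 in replicate 2. Endothelial markers went the other way: 17 of 17 measured markers were higher in lung, and all were at least 2-fold higher in both arrays. Among all genes, 32.9% were called higher and 16.5% were at least 2-fold higher in both arrays. What bone marrow cells or fibroblasts in mix1 contributed to the ratio of Ednrb was not tested.

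The promoters of the ligand Edn1 (GRCr8, chr17:22666688-22666937, minus strand) and the receptor Ednrb (GRCr8, chr15:87086766-87087015, minus strand) are shown together because both genes were lower in lung.
Edn1: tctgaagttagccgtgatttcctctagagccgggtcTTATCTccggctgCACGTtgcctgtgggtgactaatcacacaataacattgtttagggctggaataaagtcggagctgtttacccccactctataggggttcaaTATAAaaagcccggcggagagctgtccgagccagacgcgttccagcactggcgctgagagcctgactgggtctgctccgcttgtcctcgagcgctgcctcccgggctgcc
Ednrb: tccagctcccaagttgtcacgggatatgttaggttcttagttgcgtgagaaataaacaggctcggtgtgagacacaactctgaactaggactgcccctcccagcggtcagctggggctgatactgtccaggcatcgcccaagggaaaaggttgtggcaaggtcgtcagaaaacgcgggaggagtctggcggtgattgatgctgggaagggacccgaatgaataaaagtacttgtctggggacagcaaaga
Edn1 holds TATAA 110 to 106 bases, the reverse of ACGTG 201 to 197 bases and the reverse of AGATAA 214 to 209 bases before its start. Its TATAA lies farther from the RefSeq start than those of Agtr1a (45 to 41 bases), Agtr2 (37 to 33 bases), Ace and Adm. The windows of all rat promoters hold ACGTG in 16.6% and AGATAA in 10.3%. Edn1 was the 1 gene of the set with either of them. None of the 5 letter strings occurs in this window of Ednrb, and TGANTCA, found in 6.34% of all promoters, occurs in none of the 8. This holds for the strings as written and does not show that the sites are absent.

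Among other endothelin genes, a second ligand differed from Edn1. Of 10 listed genes 9 were measured, with 5 higher and 4 lower, beside 32.9% higher and 49.7% lower among all genes, and a median of 0.29. Edn3, which encodes endothelin 3, a ligand with preference for Ednrb, had 4.24 and 3.91 in the 2 arrays (4.07 ± 0.23; SD, n = 2), against -0.70 for Edn1. Edn2 had no named probe. The zinc peptidases Phex (3.75 ± 0.11) and Kel (2.90 ± 0.18), which belong to the same family as Ece1, were higher, while Ece2 (-0.24 ± 0.09) and Ecel1 (-0.54 ± 0.03) were lower. The call of Ece2 ended with array medians subtracted (-0.05, limma adjusted p 0.475). Kel, the Kell blood group protein of red cells, is known to process endothelin 3. Of the proprotein convertases that can cut the endothelin precursor, Pcsk7 (1.16 ± 0.17) and Pcsk6 (0.29 ± 0.04) were higher, and furin (Furin, -0.55 ± 0.01) and Pcsk5 (-1.27 ± 0.07) were lower. The 2 Pcsk5 probes had means of -2.23 and -0.30.

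Adrenomedullin had the lowest ratio of the set, and the main parts of its receptor were among the higher genes. Adm lay at -3.64 in replicate 1 and -3.60 in replicate 2, a mean of -3.62 ± 0.02 (SD, n = 2; 95% interval -3.74 to -3.50; limma adjusted p 0.00117). It ranked 219 from the bottom of 15611 genes and was read by 1 probe. The receptor gene Calcrl had 4.78 and 4.63 (4.71 ± 0.11), and its partner Ramp2, which makes it an adrenomedullin receptor, had 4.25 and 3.99 (4.12 ± 0.18). The ratio of Adm minus that of Calcrl was -8.42 on the log2 scale in replicate 1 and -8.23 in replicate 2. The alternative partner Ramp3, however, went with the ligand, at -2.55 and -2.48 (-2.52 ± 0.05).

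The Adm promoter is shown as that of the lowest gene of the set (GRCr8, chr1:174179950-174180199, plus strand).
Adm: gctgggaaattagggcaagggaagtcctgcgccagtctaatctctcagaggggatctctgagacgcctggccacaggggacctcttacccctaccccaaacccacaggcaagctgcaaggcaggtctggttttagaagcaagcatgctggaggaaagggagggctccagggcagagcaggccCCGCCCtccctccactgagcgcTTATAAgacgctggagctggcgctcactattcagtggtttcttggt
It holds TATAA 45 to 41 bases before the start, overlapping its copy on the other strand, and the reverse of GGGCGG at 68 to 63 bases. ACGTG is not in this window.

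Of 13 listed adrenomedullin and calcitonin family genes 11 were measured, and 9 were higher and 2 lower (median 1.22), beside 32.9% higher and 49.7% lower among all genes. The related peptide genes Calca (2.41 ± 0.03; SD, n = 2) and Calcb (2.31 ± 0.13), which encode the calcitonin gene-related peptides, were higher, unlike Adm. The 3 Calca probes did not agree, with means from -0.06 to 4.09. Adm2, the closest relative of Adm on the list, was lower at -0.48 ± 0.20, with -0.62 in replicate 1 and -0.34 in replicate 2. It was not called with array medians subtracted (-0.30, limma adjusted p 0.0694). Pam, the enzyme that amidates adrenomedullin, lay at 0.15 ± 0.02, and Ackr3, a receptor that takes up the peptide, at 0.75 ± 0.0031.

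**Figure D3:**
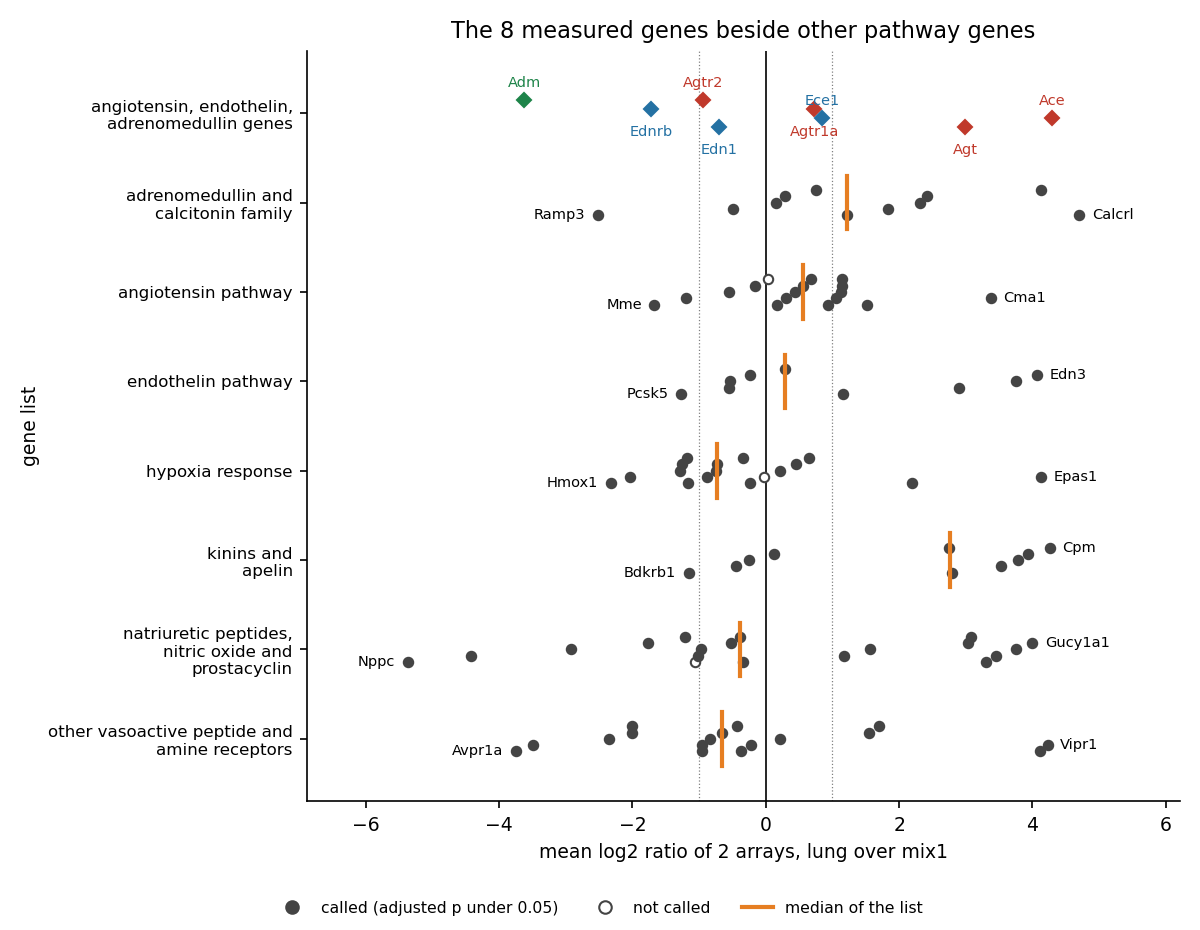
Mean log2 ratio of 2 arrays, lung over mix1 (x axis), for the 8 measured genes (diamonds) and for the genes of 7 other lists (rows), with filled points for genes called at an adjusted p under 0.05, open points for the others and a bar at each list's median. Adm at -3.62 lies far left of Calcrl at 4.71, and Edn1 at -0.70 left of Edn3 at 4.07.

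Adm, Edn1 and Vegfa are textbook hypoxia-responsive genes, so the list of hypoxia response genes was set beside them. Of 18 listed genes 17 were measured, and 5 were higher, 11 lower and 1 not called, beside 32.9% higher and 49.7% lower among all genes. With array medians subtracted, 9 were lower. The list's median was -0.74, beside -0.22 for all genes. The lower ones included the haem oxygenase Hmox1 (-2.32 ± 0.06; SD, n = 2), the collagen prolyl hydroxylases P4ha2 (-2.04 ± 0.02) and P4ha1 (-1.28 ± 0.01), and Car9 (-1.25 ± 0.19). Hif1a lay at -1.18 ± 0.01 and the endothelial paralogue Epas1 at 4.14 ± 0.01. Vegfa was higher at 2.20 ± 0.03, on the other side of 0 from Adm and Edn1. Ankrd37 (0.65 ± 0.06) and Egln3 (0.46 ± 0.04) were higher by under 2-fold.

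Cell type markers were read in the same fit, which called 32.9% higher and 49.7% lower among all genes. In the mean, Ece1, Agtr1a, Edn1 and Agtr2 lay outside the ranges of both the endothelial and the fibroblast markers. In replicate 2, however, Agtr2 at -1.03 lay within the fibroblast range, below the marker Pdgfra at -1.01. All 17 measured endothelial markers lay above 0, with a median of 4.07 and values from 2.27 (Tie1) to 6.33 (Cyyr1), and Ace at 4.29 lay within that range. Of the set, Ace was the 1 gene above that median, and Agt at 2.99 lay within the range but below it. Both ends of this range average probes that differed, with means of 1.33 and 3.21 for Tie1 and from 3.53 to 8.99 for Cyyr1. The 11 fibroblast markers were all lower, with a median of -5.66 and values from -7.44 (Prrx1) to -1.01 (Pdgfra), and Adm and Ednrb lay within that range. Pericyte and smooth muscle markers were split, 6 higher and 5 lower of 12 measured, between 5.25 (Higd1b) and -3.89 (Tagln). Macrophage markers were 4 higher and 3 lower of 9, between 2.59 (Mrc1) and -2.51 (Cd14). With array medians subtracted, 6 of these macrophage markers were higher and 3 lower, beside 6007 higher and 5931 lower of all 15611 genes. Alveolar markers were higher for 8 of 8 type 2 genes (1.45 for Abca3 to 7.11 for Lamp3) and 6 of 6 type 1 genes (0.64 for Pdpn to 6.33 for Akap5). That fits the lung label, though several of these genes also settled the sign. The 3 Abca3 probes differed, with means from -0.44 to 3.21. Ace and Agt also lay within both alveolar ranges and the pericyte and smooth muscle range. Adm and Ednrb lay within the pericyte range too, and Ednrb within the macrophage range, so the ranges single out no cell type. The part of cell composition in the ratios of the set was not tested.

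**Figure D4:**
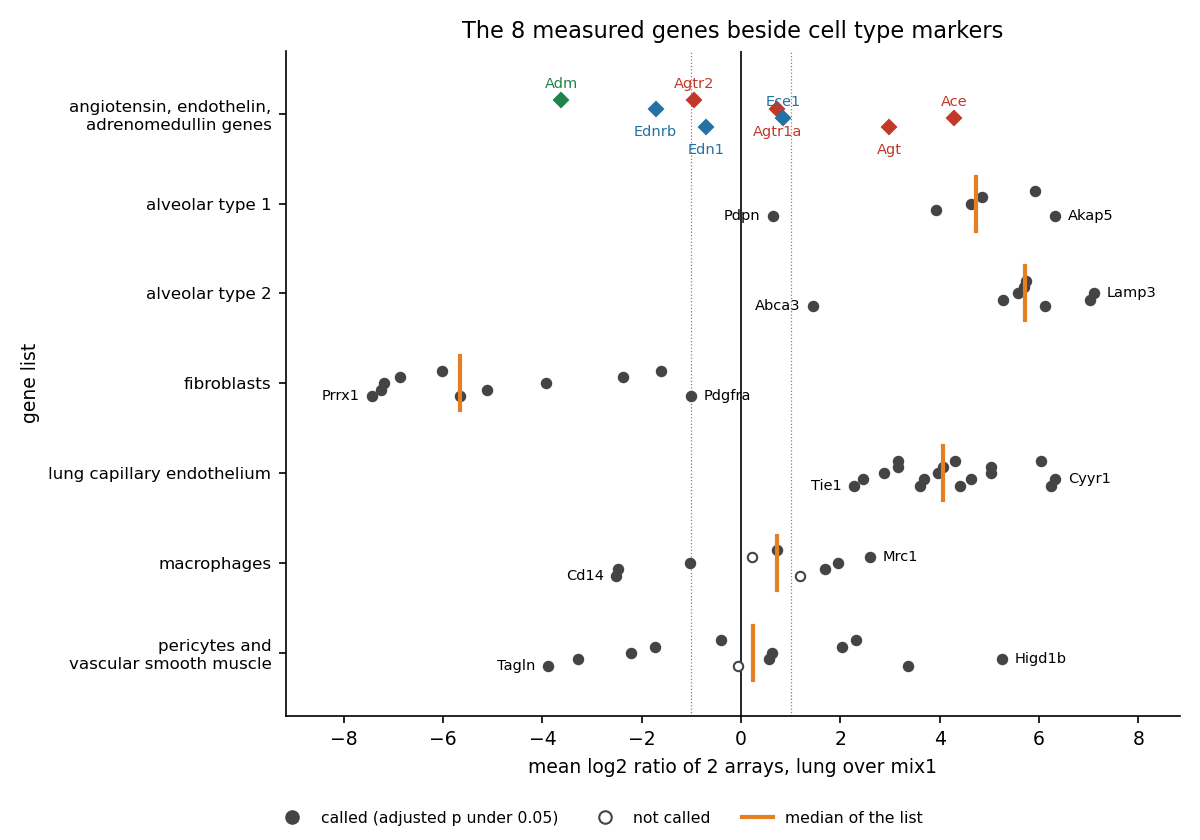
Mean log2 ratio of 2 arrays, lung over mix1 (x axis), for the 8 measured genes (diamonds) and for cell type marker lists (rows), drawn as filled points where called and open points where not, with a bar at each median. Ace lies among the endothelial markers (row lung capillary endothelium, 2.27 to 6.33), and Ednrb and Adm lie outside them. Ace also lies within the alveolar and pericyte ranges, and Ednrb and Adm within the pericyte range.

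The genes nearest to each gene of the set were found by Euclidean distance over the 2 array ratios, which with 2 arrays says only that the ratios were alike. Ace was nearest to Spmip6 and Fam184b, and Agt to Pde6h and Trim16. Agtr1a was nearest to Scn8a and Tnrc6b, Agtr2 to Or52ab4 and Lhx4, and Edn1 to Dcun1d5 and Syde1. Ednrb was nearest to Wbp1l and Glt8d1, Ece1 to Rnf146 and Fam185a, and Adm to Tll1 and Tmem119. These distances ran from 0.0021 to 0.038. Within 0.1 lay 16 genes each for Ace and Adm, 247 for Agtr1a and 558 for Edn1, so the genes in the tails had few neighbours.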

How the data were processed

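Per the labels' protocols, total RNA came from cell pellets and was extracted with TRIzol and cleaned on RNeasy columns. Agilent Feature Extraction is named in the submitters' processing notes. Its version and any correction of background or dyes are not stated, nor is the centring, so a ratio with a dim channel may be off in size. The authors' deposited values, 1 per probe and array, were taken as log2 ratios: they run from -11.74 to 9.09, which is too wide for base 10 on a 16-bit scanner. Array medians are -0.16 and -0.21, so the arrays are not centred on the median probe.

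Probe names came from GEO's platform annotation (20417 of 40012 probes, each with 1 symbol), updated through RefSeq accessions, current symbols or synonyms of assembly GRCr8, and averaged per gene. The gene test used limma 3.58.1 in R 4.3.3 (intercept, eBayes, Benjamini-Hochberg over 15611 genes, threshold 0.05), with 1 residual degree of freedom. The fit was also run on simulated data drawn from its own variance model, which cannot show how well that model holds for these arrays. Alternatives were another centring, scaling, the median probe, robust eBayes, treat, a stricter threshold, a fold rule and leaving out each array. Promoters came from RefSeq (GRCr8). The 9 genes, the lists and the tests were chosen with earlier results of these data known, and the motifs after the sequences had been seen. Genes named from a list are its up to 4 highest and 4 lowest called genes (for markers its highest and lowest), with others named after their values were seen: Agtr1b, Atp6ap2, Mas1, Pcsk6, Pam, Ackr3 and Hif1a.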

Additional observations from a re-analysis of the deposited data

How the results depend on the processing

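All 8 measured genes kept their sign under every alternative run, and all 8 kept their call with array medians subtracted, with scaling between arrays, with the median probe, with robust eBayes and at an adjusted p under 0.01. Subtracting array medians raised the median gene by 0.19, and 6007 of all genes were then called higher and 5931 lower. The call changed with treat against a 2-fold change, where adjusted p was 1.00 for Agtr1a (0.73), Agtr2 (-0.95), Edn1 (-0.70) and Ece1 (0.84). Single probes gave the same for Agtr1a, Agtr2 and Edn1, and for Ece1 probes A_44_P991864 (0.98) and A_42_P839121 (1.39, adjusted p 0.325). Ece1 probe A_44_P195356 was called with array medians subtracted, at 0.35 (adjusted p 0.0186). Treat left 2 of the 4 higher and 2 of the 4 lower genes of the set, and 2143 higher and 1881 lower of all genes, against 5142 and 7765 in limma's test against 0. At least 2-fold ratios in both arrays gave 2 and 2 of the set and 2572 and 2466 of all genes. With either array alone, at least 2-fold, 2743 to 2781 genes were higher and 2624 to 2787 lower, and in the set 2 were higher and 2 to 3 lower, the third being Agtr2. In the wider lists the 2-fold rule left 6 higher and 2 lower angiotensin genes, and 4 higher and 1 lower endothelin genes. The adrenomedullin family and the kinin and apelin list each kept 6 higher and 1 lower genes. Natriuretic peptide, nitric oxide and prostacyclin genes kept 8 higher and 6 lower, and other receptors 4 higher and 5 lower. Hypoxia genes kept 2 higher and 6 lower. Among all genes the rule left 16.5% higher and 15.8% lower. With array medians subtracted, 1 adrenomedullin family gene was lower, not 2, since Adm2 was not called. Mrgprd then reversed to 0.03, and neither it nor Ece2 was called. Klkb1, Ptgir, Nppa, Adra1a, Avpr2, Ndrg1 and Pfkfb4 also lost their lower call, while Anpep, Csf1r and Siglec1 gained a higher one. That left 2 lower kinin and apelin genes, 8 lower natriuretic peptide, nitric oxide and prostacyclin genes, and 10 lower genes among other receptors. The fold rule and treat ask for a larger change by construction. The table holds no missing value, no exact 0 and no repeated extreme, and the filter on such values was therefore not run. No paired analysis was possible because the lung samples form 1 group.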

Other observations

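Other vasoactive genes were read in the same fit, which called 32.9% higher and 49.7% lower among all genes. Of 11 listed kinin and apelin genes 10 were measured, of which 7 were higher and 3 lower in lung (median 2.77). The peptidase Cpm, which trims kinins, lay at 4.26 ± 0.03 (SD, n = 2), and the apelin gene Apln, a marker of some capillary cells, at 3.93 ± 0.02. The kininogen gene Kng2 was also higher but differed between arrays, at 3.20 in replicate 1 and 4.39 in replicate 2. The kinin receptors Bdkrb1 (-1.16 ± 0.04) and Bdkrb2 (-0.44 ± 0.01) were lower.

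Of 19 genes of natriuretic peptide, nitric oxide and prostacyclin signalling, 8 were higher, 10 lower and 1 not called (median -0.38), beside 32.9% higher and 49.7% lower among all genes. The soluble guanylate cyclase subunits Gucy1a1 (4.09 in replicate 1 and 3.91 in replicate 2) and Gucy1b1 (3.75 ± 0.09; SD, n = 2), endothelial nitric oxide synthase (Nos3, 3.45 ± 0.10) and the natriuretic peptide receptor Npr1 (3.31 ± 0.03) were the highest. The C-type natriuretic peptide gene Nppc was the lowest at -5.37 ± 0.02, followed by the cyclooxygenase Ptgs2 (-4.42 ± 0.23) and the receptors Npr3 (-2.92 ± 0.03) and Npr2 (-1.76 ± 0.02). Among 17 measured genes of other vasoactive peptides and receptors, 5 were higher and 12 lower (median -0.66), beside the same shares. Vipr1 (4.23 ± 0.41) and the substance P receptor Tacr1 (4.11 ± 0.27) were the highest, and the vasopressin receptor Avpr1a (-3.75 ± 0.01) and Npy1r (-3.50 ± 0.24) the lowest.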
